A study of Mus musculus with 8 samples.

Results

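The genes described here are 40 genes of DNA replication and mitosis, out of 55471 genes in the tables, measured in mouse blastocysts of 3 Isca2 genotypes. They were listed by symbol (replication licensing, nucleotide supply, cyclins, mitotic kinases and spindle), with earlier results of these data known. Each symbol was matched to 1 gene identifier through a GENCODE annotation of GRCm38. They are kept in 2 groups: 19 genes of the G1/S transition and S phase, and 21 genes of G2 and mitosis. All 40 passed the filter on low counts.

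Cells copy their DNA in S phase and separate the copies in mitosis. The MCM helicase is loaded on origins in G1 by factors that include Cdc6 and Cdt1. It is fired by cyclin-dependent kinases together with Cdc45 and the GINS complex. The new DNA is then built from deoxynucleotides made by ribonucleotide reductase. Entry into mitosis needs Cdk1 with its cyclins, and spindle assembly and chromosome separation need Aurora and Polo-like kinases, kinesins and the spindle checkpoint. The E2F transcription factors are known for driving S-phase genes and the DREAM and MuvB complexes for timing G2 and mitosis genes. In the blastocyst, an outer trophectoderm surrounds the epiblast and the primitive endoderm, and all of these divide.

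Embryos were mouse blastocysts of embryonic day 4.5, sequenced as 8 libraries. Isca2 encodes a mitochondrial protein that helps to build iron-sulfur clusters. The wild-type group (WT) has 3 libraries, the knockout group (KO, Isca2 -/-) has 2 and the group homozygous for a G77S substitution (G77S, Isca2 G77S/G77S) has 3. Per the labels' protocols, heterozygous (Isca2+/-) females were superovulated with gonadotropins and mated with heterozygous males, and the embryos were grown in culture before their mRNA was amplified whole by a kit made for single cells. The labels do not say which mating gave the G77S embryos, how many embryos a library holds, or their litter, sex or batch, so a p-value here weighs a difference against the variation among libraries, part of which may be technical.

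Levels of a gene are compared between libraries in CPM, which puts every library on the same TMM-scaled total. Isca2 itself was at 86.9, 173 and 154 CPM in WT, 4.84 and 6.20 CPM in KO, and 89.1, 105 and 133 CPM in G77S. The log2 fold change in KO against WT was -4.64 (SE 0.41, adjusted p = 0.00387), and both KO libraries were far below all others, as labelled. Libraries held between 10323965 and 23842619 counts, of which 3 corresponded to 0.139 to 0.298 CPM. Trophectoderm markers (5 genes) summed to 7240 to 11142 CPM in WT, 7799 to 12777 CPM in KO and 3897 to 4722 CPM in G77S, and epiblast markers (5 genes) to 240 to 305, 182 to 198 and 150 to 257 CPM, so both lineages were present in every group. Primitive endoderm markers (5 genes) summed to 17.8 to 23.9 CPM in WT, 39.6 to 45.4 in KO and 29.2 to 39.4 in G77S. Of 7 cumulus cell markers, 6 were at 0 in every library, 4 blood markers summed to at most 0.884 CPM, and 6 oocyte markers to at most 24.7 CPM, in WT. Deposited lengths imply a mean fragment of 182.4 to 186.1 bases for G77S and of 243.7 to 292.1 bases for WT and KO, so library preparation and this genotype cannot be told apart. The part of the trophectoderm marker level in the G77S results below was not tested, and in whole blastocysts fewer cells of a type and less RNA per cell cannot be told apart.

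Promoter sequences are shown first because the 2 groups of genes hold different letters near their start sites. RefSeq promoter sequences (GRCm38.p6, 250 bases before to 50 bases after the start) were found for 31 of the 40 genes. Missing were Mcm4, Gins1, Gins2, Ccnd1, Ccna2, Wee1, Aurkb, Kif20a and Tpx2. The E2F motif was searched as TTTGGCGC, TTTCGCGC, TTTCCCGC or TTTGCCGC, the cell cycle homology region (CHR) as TTTGAA or TTCGAA, and the CCAAT box as CCAAT, each on both strands. TTCGAA reads the same on both strands, and overlapping E2F matches such as TTTGGCGC facing TTTCGCGC lie within 1 run.

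An E2F motif was in 7 of 15 S-phase promoters (46.7%) and in 1 of 16 G2 and mitosis promoters (6.25%), beside 2.6% of the promoters of all genes in the table and 4.69% of those of genes tested. A CHR was in 3 of 15 S-phase promoters (20%) and 12 of 16 G2 and mitosis promoters (75%), beside 21.7% of all genes and 16.7% of genes tested. The CCAAT box was in 11 of 15 (73.3%) and 14 of 16 (87.5%), beside 41.1% and 43.8%. A match is a description of the letters and not a site of binding.

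The sequences below are the 250 bases before the start of the 5 genes that differed between genotypes (Mcm7, Rrm2, Cdc45, Plk1, Aurka), with Mcm6 as an example of a promoter with several E2F matches and Cdk1 as one with both motif kinds. All read 5′ to 3′ on the gene's strand, and capitals mark matches to the E2F, CHR or CCAAT letters. The Mcm7 stretch is chr5:138171884-138172133 (minus strand, the more upstream of 2 listed starts). Its capitals are a CHR at -173, an E2F match on the opposite strand at -165 and a pair of CCAAT boxes on the opposite strand. The Rrm2 stretch is chr12:24708004-24708253 (plus strand), the Cdc45 stretch chr16:18811973-18812222 (minus strand, its last capitals being a CCAAT box that runs past the printed end) and the Mcm6 stretch chr1:128359706-128359955 (minus strand). The Plk1 stretch is chr7:122159185-122159434 (plus strand), the Aurka stretch chr2:172370571-172370820 (minus strand) and the Cdk1 stretch chr10:69352913-69353162 (minus strand).
Mcm7: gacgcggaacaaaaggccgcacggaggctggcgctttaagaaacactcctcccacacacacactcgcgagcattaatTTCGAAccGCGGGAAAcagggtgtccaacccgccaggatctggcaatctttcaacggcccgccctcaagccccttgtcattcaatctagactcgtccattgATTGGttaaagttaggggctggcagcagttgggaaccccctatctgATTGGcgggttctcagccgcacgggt
Rrm2: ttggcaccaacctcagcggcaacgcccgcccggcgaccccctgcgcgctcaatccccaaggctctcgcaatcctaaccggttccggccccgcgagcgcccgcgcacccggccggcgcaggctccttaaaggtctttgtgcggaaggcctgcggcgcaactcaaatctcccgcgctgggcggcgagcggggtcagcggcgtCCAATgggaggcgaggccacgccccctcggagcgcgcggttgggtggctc
Cdc45: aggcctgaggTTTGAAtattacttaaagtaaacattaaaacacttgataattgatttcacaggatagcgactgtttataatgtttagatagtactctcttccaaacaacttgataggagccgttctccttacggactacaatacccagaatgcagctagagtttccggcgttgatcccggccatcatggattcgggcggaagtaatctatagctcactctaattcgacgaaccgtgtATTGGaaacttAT
Mcm6: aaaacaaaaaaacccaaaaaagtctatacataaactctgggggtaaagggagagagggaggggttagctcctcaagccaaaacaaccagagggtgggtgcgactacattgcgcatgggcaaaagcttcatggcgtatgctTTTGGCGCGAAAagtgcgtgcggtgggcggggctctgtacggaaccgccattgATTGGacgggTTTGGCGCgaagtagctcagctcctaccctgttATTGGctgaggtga
Plk1: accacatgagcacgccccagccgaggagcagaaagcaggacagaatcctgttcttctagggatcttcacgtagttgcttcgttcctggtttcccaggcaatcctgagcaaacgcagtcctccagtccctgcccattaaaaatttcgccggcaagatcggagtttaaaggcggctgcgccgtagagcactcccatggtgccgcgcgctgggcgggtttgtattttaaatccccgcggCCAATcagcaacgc
Aurka: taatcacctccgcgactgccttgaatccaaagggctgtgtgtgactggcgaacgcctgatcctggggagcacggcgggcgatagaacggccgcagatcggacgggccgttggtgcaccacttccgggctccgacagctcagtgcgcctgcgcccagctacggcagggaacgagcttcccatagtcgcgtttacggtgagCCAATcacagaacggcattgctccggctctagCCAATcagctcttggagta
Cdk1: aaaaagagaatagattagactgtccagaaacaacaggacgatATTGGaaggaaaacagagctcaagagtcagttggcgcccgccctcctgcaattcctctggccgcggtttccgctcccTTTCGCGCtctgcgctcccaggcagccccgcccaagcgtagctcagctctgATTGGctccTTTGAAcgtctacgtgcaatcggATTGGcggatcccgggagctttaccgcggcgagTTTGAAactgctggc
In these windows Rrm2 had a CCAAT box at -50 and no E2F or CHR letters. Plk1 and Aurka had CCAAT boxes before the start, and their CHR matches lay after it, at 31 and 33, outside the printed bases. Cdk1 carried CHR letters at -71 and -15 and an E2F match at -131.

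Levels between genes are compared per transcript length, in TPM (each library scaled to a fixed total of transcripts). In WT, the most abundant S-phase genes were Rrm2, the small subunit of ribonucleotide reductase (198 ± 68.7 TPM, SD, n = 3), Pcna, the sliding clamp of the DNA polymerases (128 ± 10.5), and Gins1, a subunit of GINS (84.4 ± 12.0). The WT libraries of these 3 genes did not overlap with each other, since Rrm2 lay between 155 and 277, Pcna between 118 and 138 and Gins1 between 73.7 and 97.3 TPM. Gins1 and Mcm6, the next gene in order, did overlap (Mcm6 from 23.7 to 90.1 TPM). The scarcest were E2f1, an E2F activator (0.543 ± 0.316 TPM), and Ccnd1, cyclin D1 (0.263 ± 0.422 TPM). Among the mitotic genes Birc5 (survivin), of the chromosomal passenger complex, stood highest at 674 ± 180 TPM. It was followed by the cyclins Ccnb1 (379 ± 109) and Ccnb2 (352 ± 52.7), by Cdk1 (232 ± 51.9) and by Aurka, the spindle pole kinase Aurora A (154 ± 41.6). Ccnb1, between 265 and 482 TPM, overlapped with Ccnb2, between 292 and 391. Mki67, the proliferation marker Ki-67, was at 1.33 ± 1.002 TPM and Espl1, separase, at 0.723 ± 0.479.

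**Figure D1:**
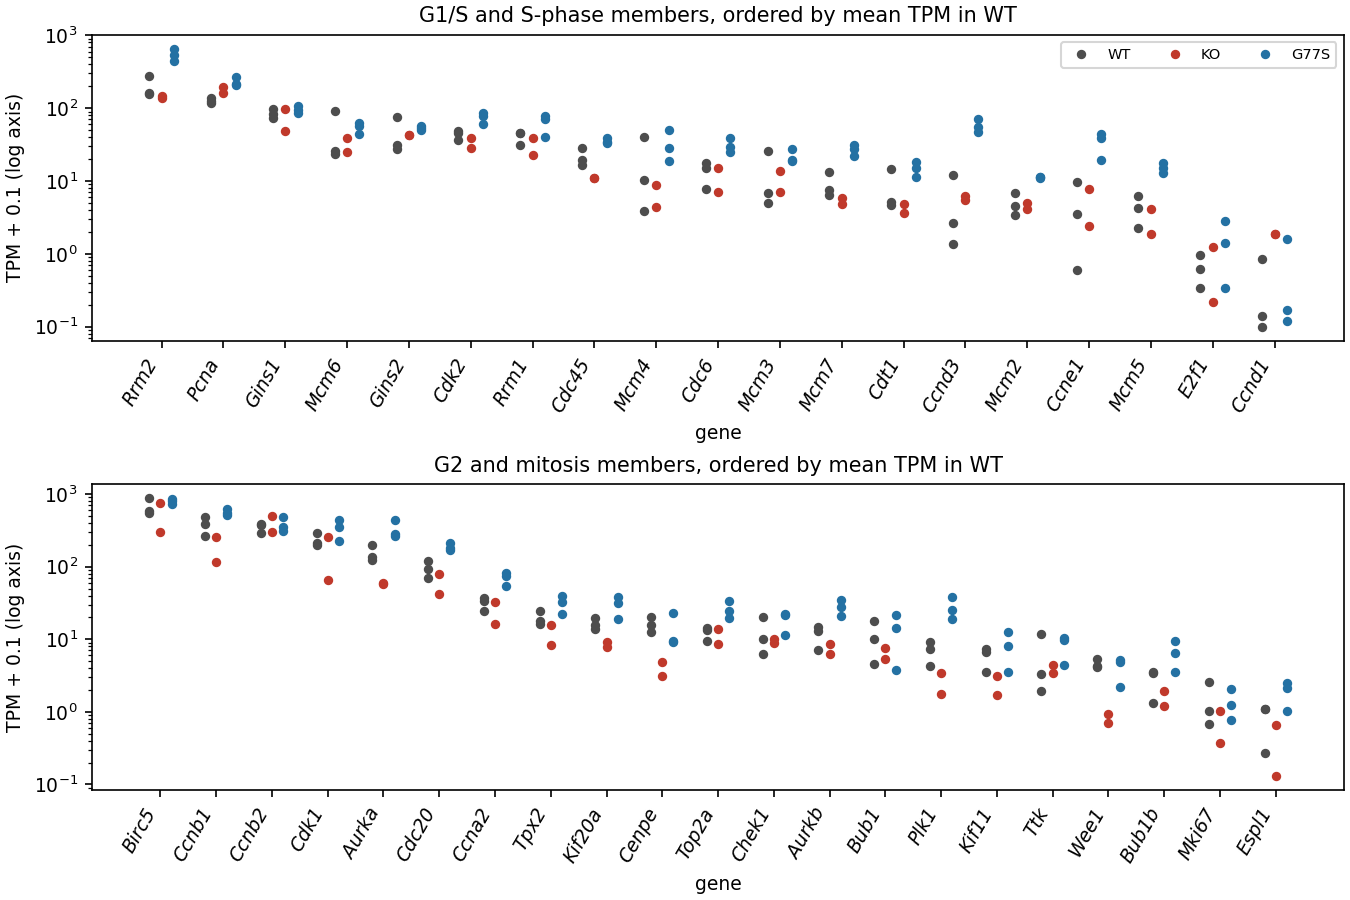
Levels of the 40 genes in TPM plus 0.1 (log axis), each point a library, coloured by genotype and ordered by the mean in wild type; S-phase genes above and G2 and mitosis genes below. Rrm2 (198 TPM in WT) and Birc5 (674 TPM in WT) lead their groups, and Ccnd1 and Espl1 come last.

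The S-phase genes were mostly higher in G77S than in WT and, as a group, near WT in KO. Between G77S and WT, 17 of 19 had a positive log2 fold change with a median of 0.67, where all 13953 tested genes had 0.03, and 2 were called higher (Mcm7 and Rrm2, at an adjusted p under 0.05) and 0 lower. Over all tested genes 1.3% were called higher and 2.09% lower. In 10 of the 19 genes every G77S library was above every WT library, and in 0 every one was below, where 17.2% and 11.8% of all tested genes did so. In KO against WT, 2 genes lay wholly above and 2 wholly below, where 13.1% and 12.5% of all tested genes did. In G77S against KO, 13 lay wholly above and 0 below, where 24.9% and 20% of all tested genes did. Between KO and WT the median was -0.02, 9 genes were positive and 10 negative, and no gene was called with edgeR, where 0.0788% of tested genes were called higher and 0.043% lower. At an unadjusted p under 0.05, 2 of the 19 passed, beside 1819 of all 13953 tested genes. DESeq2 called 1 of them, Pcna, higher, and 304 of all tested genes higher. Between G77S and KO the median was 0.85, where all tested genes had 0.10, with 15 of 19 positive. Mcm7, Rrm2 and Cdc45 were called higher and 0 lower, where 1.76% and 2.43% of tested genes were called. The comparisons share libraries, so their values are not independent.

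On GRCm38, the 5 genes that passed a test lie at chr5:138164583-138172422 (Mcm7, ENSMUSG00000029730, minus strand), chr12:24708241-24714146 (Rrm2, ENSMUSG00000020649, plus strand) and chr16:18780447-18811987 (Cdc45, ENSMUSG00000000028, minus strand). Plk1 (ENSMUSG00000030867, plus strand) lies at chr7:122159439-122169873 and Aurka (ENSMUSG00000027496, minus strand) at chr2:172356190-172370535.

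Among the 6 helicase subunits, Mcm7 rose in G77S. It was at 28.1, 16.4 and 18.4 CPM in WT, 13.6 and 12.0 CPM in KO and 75.1, 54.7 and 48.9 CPM in G77S. All G77S libraries were above all others, and both KO libraries were below all WT libraries. The fold change was 2.84 against WT (log2 1.5, SE 0.33, adjusted p = 0.0364) and 4.64 against KO (log2 2.21, SE 0.39, adjusted p = 0.0128). Without WT replicate 2, WT replicate 3 or any 1 of the G77S replicates, the adjusted p against WT was 0.0725 to 0.154. Against KO it was 0.0511 to 0.101 without G77S replicate 1, G77S replicate 2 or either KO library. With gene length trends removed from each library, the adjusted p against WT was 0.0251. Exons of Mcm7 share 64 bases with Cops6 (91.3 to 194 CPM) and 321 bases with Ap4m1 on the opposite strand, and the labels do not state stranded counting, so reads of these stretches cannot be told apart.

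Mcm5 followed without passing the test against WT: 22.1, 18.1 and 9.36 CPM in WT, 18.2 and 8.74 in KO, and 50.8, 51.7 and 41.1 in G77S (log2 fold change 1.54, SE 0.41, adjusted p = 0.0676 against WT, and 1.83, SE 0.48, adjusted p = 0.0597 against KO). The G77S libraries again stood clear of all others. Mcm2 and Mcm3 were also higher in every G77S library than in every WT library, with group means of 19.4 ± 4.75 CPM in WT and 35.9 ± 2.96 in G77S for Mcm2, and 15.6 ± 12.9 and 36.6 ± 6.11 for Mcm3 (SD, n = 3 each, adjusted p = 0.144 and 0.251). Mcm4 and Mcm6 differed from them. Mcm4 was at 147, 17.3 and 47.3 CPM in WT, 41.6 and 22.5 in KO, and 70.6, 153 and 92.5 in G77S, with overlap of WT and G77S and a spread of 8.52-fold within WT. Mcm6 was at 271, 87.3 and 95.5 CPM in WT, 148 and 103 in KO, and 129, 146 and 170 in G77S (log2 fold change -0.03, SE 0.40 against WT, adjusted p = 0.98). WT replicate 1 was the highest WT library in both, and also in Mcm2, Mcm3, Mcm5 and Mcm7. For Mcm3 it was at 30.4 CPM, close to the lowest G77S library at 30.8.

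Cdc45, which joins the helicase to GINS at the fork, was lowest in KO and highest in G77S. It was at 53.3, 38.0 and 45.5 CPM in WT, 26.8 and 27.9 in KO, and 63.6, 64.7 and 62.6 in G77S. The groups did not overlap. It passed the test against KO (2.33-fold, log2 1.22, SE 0.29, adjusted p = 0.0443) but not against WT (log2 0.48, SE 0.25, adjusted p = 0.318), and its KO against WT value was -0.74 (SE 0.29, adjusted p = 0.309). The call against KO was lost without any 1 of the 5 libraries, with adjusted p-values of 0.111 to 0.174, and without the low-count filter (0.0502). Exons of Cdc45 share 209 bases with Ufd1, on the opposite strand, which was at 196 to 344 CPM. Gins1 was at 67.4, 109 and 92.4 CPM in WT, 53.4 and 124 in KO, and 84.9, 79.0 and 94.8 in G77S, with full overlap. Gins2 lay between 33.7 and 63.0 CPM in all 8 libraries. For the loading factors, Cdc6 was at 47.1 ± 15.6 CPM in WT and 85.3 ± 12.0 in G77S, and Cdt1 at 20.4 ± 11.9 and 32.4 ± 9.42 (adjusted p = 0.208 and 0.43).

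Ribonucleotide reductase and Pcna supply nucleotides and hold the polymerase. Rrm2 was at 603, 430 and 416 CPM in WT, 380 and 442 in KO, and 1179, 1228 and 898 in G77S. The lowest G77S library was above the highest of the other 5. It was 2.28-fold higher in G77S than in WT (log2 1.19, SE 0.22, adjusted p = 0.0164) and 2.68-fold higher than in KO (log2 1.42, SE 0.25, adjusted p = 0.0128). Without WT replicate 2, WT replicate 3, G77S replicate 1 or G77S replicate 2, the adjusted p against WT was 0.0639 to 0.086. Against KO it was 0.0501 to 0.0904 without G77S replicate 1, G77S replicate 2 or either KO library. Its partner subunit Rrm1 was at 145 ± 8.39 CPM in WT, 122 ± 30.1 in KO and 222 ± 64.2 in G77S, with WT and G77S overlapping (adjusted p = 0.21). Pcna was at 188, 206 and 224 CPM in WT, 281 and 390 in KO, and 309, 332 and 281 in G77S. Both mutant groups were above all WT libraries, with log2 fold changes of 0.70 (SE 0.22, adjusted p = 0.213) in KO and 0.58 (SE 0.20, adjusted p = 0.135) in G77S with edgeR.

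The cyclins Ccnd3 and Ccne1 had the largest fold changes of G77S against WT, and a wide spread in WT. Ccnd3, cyclin D3, was at 23.0, 5.56 and 0.834 CPM in WT, 13.2 and 16.1 in KO, and 139, 92.8 and 85.3 in G77S. The G77S libraries were well clear of the rest, but WT varied 27.6-fold, and the log2 fold change of 3.43 (SE 0.85) against WT came with an adjusted p of 0.0558. Of 14 alternatives 7 called it, and without WT replicate 1 the value was 5.13 (adjusted p = 0.00777). Without WT replicate 2 or any 1 of the G77S replicates, its adjusted p was 0.109 to 0.162. Ccne1, cyclin E1, was at 18.1, 8.44 and 1.25 CPM in WT, 5.79 and 20.6 in KO, and 76.6, 75.3 and 32.8 in G77S, and its log2 difference of G77S from WT was 2.73 (SE 0.81, adjusted p = 0.0895). Without WT replicate 1 it was 3.71 (adjusted p = 0.0469). Leaving out any other 1 of the WT or G77S libraries gave Ccne1 an adjusted p of 0.121 to 0.231, and 5 of 14 alternatives called it. Ccnd3 and Ccne1 both passed with DESeq2 (adjusted p = 0.012 and 0.004), which also called Mcm2 and Mcm5. Ccnd1 was at 2.96, 0.199 and 0 CPM in WT, 4.43 and 2.97 in KO, and 4.20, 0.068 and 0.260 in G77S, near the floor in several libraries, so no fold is given. Cdk2, the partner kinase of cyclin E, lay between 89.0 and 172 CPM in all libraries, and E2f1 between 0.477 and 7.49 CPM. For Cdk2 every G77S library was above both KO libraries (adjusted p = 0.19), while G77S and WT overlapped (adjusted p = 0.333). The exons of Ccnd3 share 361 bases with Bysl, on the opposite strand, which was at 10.8 to 54.1 CPM. In all, 11 of the listed genes have exons overlapping another gene. Kif20a shares 1271 bases with Cdc23 (55.1 to 117 CPM) and Ccna2 shares 510 with Exosc9 (91.5 to 189 CPM), both on the opposite strand.

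**Figure D2:**
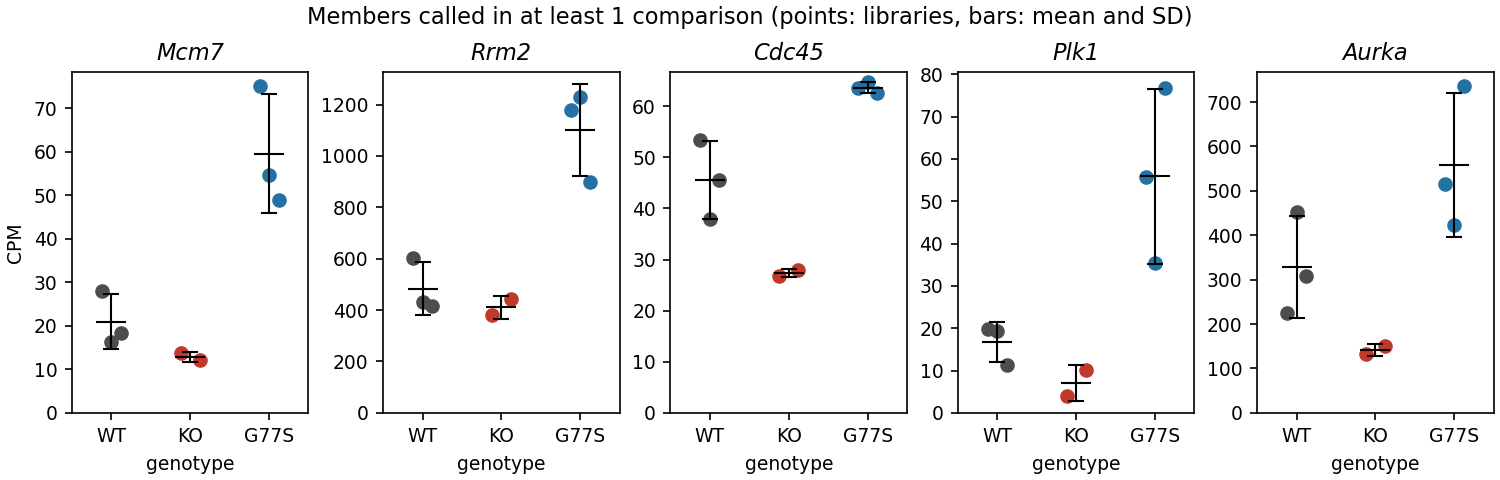
CPM of the 5 genes called in at least 1 comparison, by genotype (points are libraries, horizontal lines the mean, bars the SD, axes from 0). In Mcm7, Rrm2 and Cdc45 the G77S libraries lie above all WT and KO libraries, while in Aurka the lowest G77S library (422 CPM) overlaps with WT (up to 451 CPM).

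The G2 and mitosis genes were lower in KO than in WT in most members, chiefly in KO replicate 1, and higher in G77S than in KO. Between KO and WT, 18 of 21 had a negative log2 fold change with a median of -0.41, where all tested genes had -0.06, and in 6 both KO libraries were below all WT libraries while in 0 they were above (12.5% and 13.1% of all tested genes). No gene of the 21 was called in the main edgeR fit (all libraries, low-count filter), where 0.0788% of all tested genes were called higher and 0.043% lower. Of the 21, 5 passed at an unadjusted p under 0.05, beside 1819 of all 13953 tested. DESeq2 called 3 lower (Aurka, Wee1 and Cenpe), and 342 of all tested genes lower. Without KO replicate 1 the median was -0.15, and without KO replicate 2 it was -1.02. Between G77S and WT the median was 0.28, with 16 of 21 positive and 6 without overlap above WT (17.2% of all tested genes). In the main edgeR fit 0 were called, where 1.3% of all tested genes were called higher and 2.09% lower. At an unadjusted p under 0.05, 5 of the 21 passed, beside 2797 of the 13953 tested genes. Without G77S replicate 3 that median was 0.08. DESeq2 called Plk1 higher in G77S than in WT, and 714 of all tested genes higher. Between G77S and KO the median was 1.04, 20 of 21 were positive, 12 did not overlap and were above KO, and 0 were below it (24.9% and 20% of all tested genes). Plk1 and Aurka were called higher and 0 lower, where 1.76% and 2.43% of all tested genes were called. Without KO replicate 1 that median was 0.62 and neither gene was called, and without KO replicate 2 it was 1.64.

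**Figure D3:**
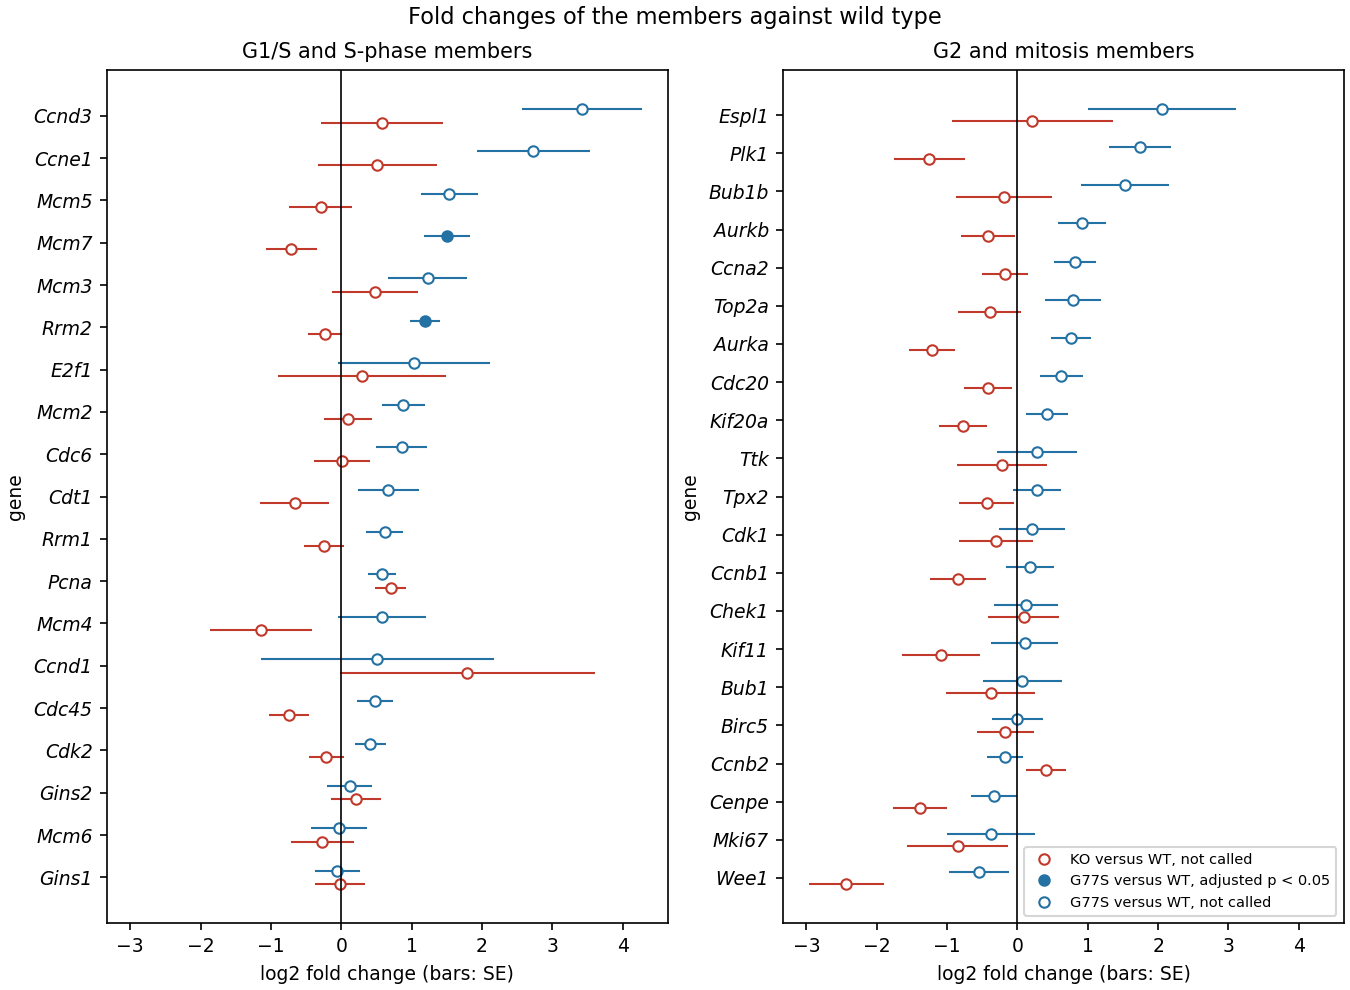
Log2 fold changes of the 40 genes in KO and in G77S against wild type, with bars for the standard error; filled points have an adjusted p under 0.05. Most G77S points of the S-phase genes lie to the right of 0, and 18 of 21 KO points of the G2 and mitosis genes lie to the left.

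The mitotic cyclins and Cdk1, which drive mitotic entry, did not pass edgeR's test in any comparison with the low-count filter. Without that filter, Ccna2 and Ccnb1 (adjusted p = 0.0062 for Ccnb1) were called higher in G77S than in KO, and DESeq2 called Ccna2 there. Ccnb1 was at 655, 1439 and 1208 CPM in WT, 357 and 870 in KO, and 1227, 1096 and 1411 in G77S. The G77S libraries were above both KO libraries, and WT overlapped with both groups. Ccnb2 was at 534, 694 and 523 CPM in WT, 547 and 996 in KO, and 459, 447 and 647 in G77S, and it was the only one of the 21 with a negative fold change between G77S and KO (log2 -0.58, SE 0.29, adjusted p = 0.278). Cdk1 was at 86.0 CPM in KO replicate 1 and 370 in KO replicate 2. Ccna2, cyclin A2, was at 110 ± 17.1 CPM in WT, 97.6 ± 50.9 in KO and 194 ± 33.0 in G77S (adjusted p = 0.153 for G77S against WT).

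Wee1, the kinase that holds Cdk1 inactive, had the most negative KO value of the 40 genes. It was at 14.3, 18.2 and 23.2 CPM in WT, 3.84 and 3.02 in KO, and 7.28, 14.4 and 16.5 in G77S. Both KO libraries were low, and G77S overlapped with WT. The log2 fold change in KO was -2.43 (SE 0.53, adjusted p = 0.119 with edgeR and 0.000316 with DESeq2). The checkpoint kinase gene Chek1 was at 37.2 ± 22.7 CPM in WT, 39.7 ± 5.61 in KO and 40.5 ± 10.6 in G77S.

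Plk1, a kinase of mitotic entry and spindle poles, was at 19.7, 19.3 and 11.4 CPM in WT, 4.02 and 10.01 in KO, and 55.6, 35.4 and 76.8 in G77S. The groups did not overlap. It was 7.96-fold higher in G77S than in KO (log2 2.99, SE 0.54, adjusted p = 0.0155), and against WT the log2 fold change was 1.74 (SE 0.44, adjusted p = 0.0599). The adjusted p against KO was 0.0551 without G77S replicate 3 and 0.0877 without KO replicate 1. Aurka was at 226, 451 and 309 CPM in WT, 133 and 151 in KO, and 516, 422 and 737 in G77S. KO was below all other libraries. G77S was 3.94-fold higher than KO (log2 1.98, SE 0.34, adjusted p = 0.012), while against WT the log2 fold change was 0.76 (SE 0.29, adjusted p = 0.166). The adjusted p against KO was 0.0878 without KO replicate 1 and 0.0803 without KO replicate 2. Aurkb, Aurora B of the chromosomal passenger complex, was at 24.4 ± 7.26 CPM in WT, 18.3 ± 5.08 in KO and 46.2 ± 8.73 in G77S (adjusted p = 0.163 for G77S against WT and 0.0895 against KO). Its partner Birc5 was at 426, 857 and 577 CPM in WT, 285 and 816 in KO, and 674, 533 and 650 in G77S, with all groups overlapping.

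Among the spindle checkpoint and separation genes none was called in the main edgeR fit. Cdc20 was called higher in G77S than in KO in 3 of 13 alternatives, DESeq2 among them, and higher than in WT in 1 of 14. Cdc20, the activator of the anaphase-promoting complex, was at 180 ± 58.3 CPM in WT, 135 ± 64.9 in KO and 278 ± 23.4 in G77S. Bub1b was at 7.16 ± 5.50, 6.31 ± 3.52 and 20.8 ± 7.69 CPM, while Bub1 and Ttk were spread over 13.0 to 69.0 and 6.75 to 34.2 CPM with full overlap. Espl1 was at 0.836, 0.298 and 0.417 CPM in WT, 0.945 and 0.265 in KO, and 2.66, 1.84 and 2.08 in G77S, close to the value of 3 counts in the lower libraries. The G77S libraries were above the rest there (adjusted p = 0.309 against WT).

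Several mitotic motors had their lowest group mean in KO, without a call in the main edgeR fit. Cenpe, a kinetochore kinesin, was at 105, 114 and 134 CPM in WT, 33.7 and 56.5 in KO, and 75.3, 64.6 and 140 in G77S. Both KO libraries were below all others (log2 fold change -1.38 against WT, SE 0.38, adjusted p = 0.174). Kif11 and Kif20a, other mitotic kinesins, were also lower in both KO libraries than in all WT libraries, with log2 fold changes of -1.09 (SE 0.55) and -0.77 (SE 0.34). For Kif11 this rests on 21.725 CPM in KO replicate 2 against 21.743 in WT replicate 2. G77S replicate 1 had less Kif11 than KO replicate 2, at 17.5 CPM. Mki67 was at 27.6, 12.7 and 8.11 CPM in WT, 3.78 and 14.1 in KO, and 7.35, 10.5 and 19.6 in G77S. Top2a, topoisomerase II alpha, ranged from 15.8 CPM in KO replicate 1 to 85.0 in G77S replicate 3, and Tpx2, a spindle assembly factor, from 42.6 to 138 CPM in the same libraries. All G77S libraries were above all others in Top2a, the lowest at 46.2 CPM beside 44.3 in WT replicate 2. Its adjusted p was 0.303 against WT and 0.179 against KO, and the Tpx2 groups overlapped.

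**Figure D4:**
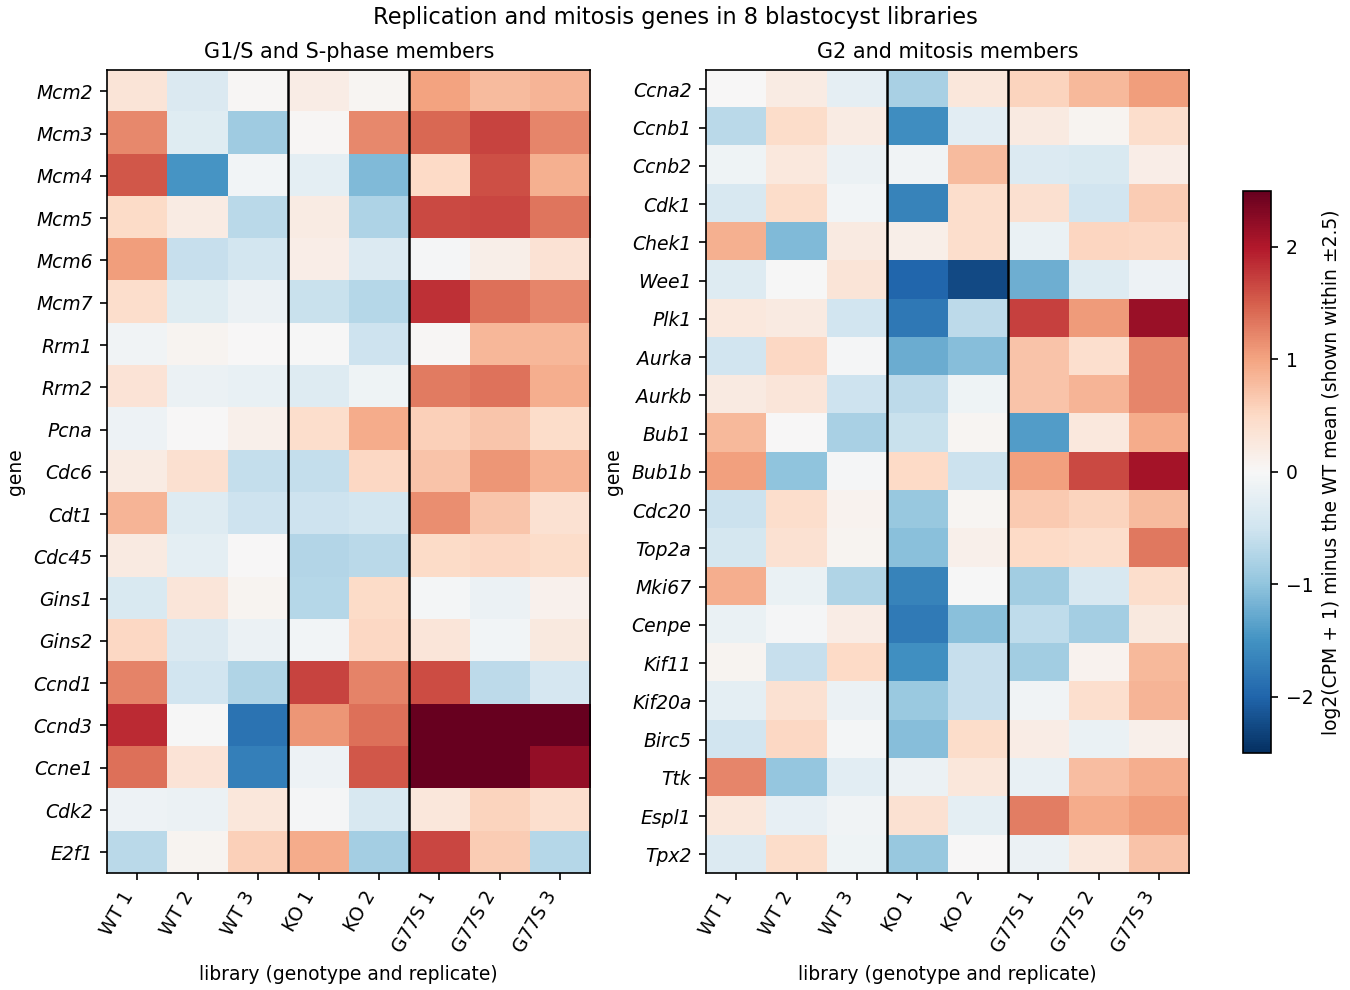
Log2(CPM + 1) of each gene in each library minus the WT mean (colour, limited to ±2.5), with black lines between genotypes; S-phase genes at left, G2 and mitosis genes at right. The KO replicate 1 column is blue in most G2 and mitosis genes, and Ccnd3 and Ccne1 are darkest red in the G77S columns.

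The libraries of a genotype differed in both groups of genes. Taken as the median of log2(CPM + 1) minus the WT mean, S-phase genes stood at 0.44, -0.15 and -0.15 in WT, -0.03 and -0.11 in KO, and 1.01, 0.79 and 0.83 in G77S. All G77S libraries were above WT replicate 1, the highest of the others. G2 and mitosis genes stood at -0.12, 0.22 and -0.07 in WT, -0.95 and -0.02 in KO, and 0.18, 0.42 and 0.81 in G77S. G77S replicate 1 was below WT replicate 2 here, so these groups overlapped. The summed level of the mitotic genes was 956 TPM in KO replicate 1 and 2011 TPM in KO replicate 2. Abundant genes weigh most in such a sum, and Birc5 alone was at 298 and 747 TPM in these libraries. KO replicate 1 held the lower of the KO values in 18 of 21 mitotic genes but in 10 of 19 S-phase genes. G77S replicate 3 was the highest G77S library in 18 of 21 mitotic genes and the lowest in 10 of 19 S-phase genes. WT replicate 1 was the highest WT library in 13 of 19 S-phase genes. Summed over 4 Y-linked genes, WT replicate 1 held 0.335 CPM and G77S replicate 1 held 0.070 CPM, where the other 6 libraries held 215 to 418 CPM. The part of this difference in the S-phase levels was not tested.

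**Figure D5:**
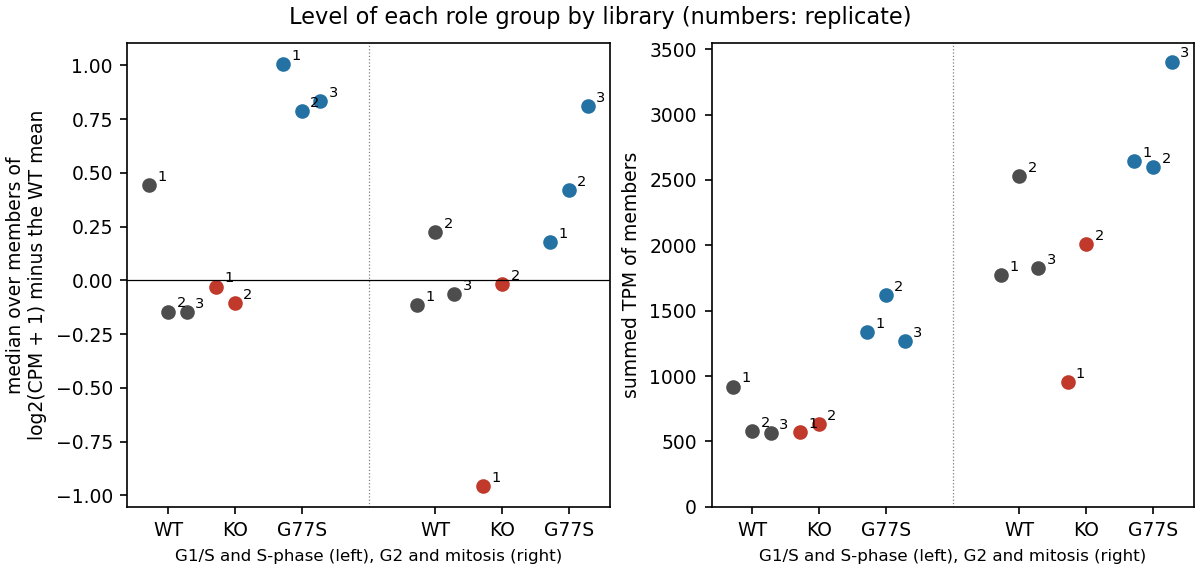
Level of the S-phase genes (left in each panel) and the G2 and mitosis genes (right) in each library, as the median over genes of log2(CPM + 1) minus the WT mean and as summed TPM; numbers give the replicate. S-phase levels of G77S (0.79 to 1.01) lie above all others, and KO replicate 1 is lowest in the mitotic genes at -0.95.

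The other genes of the pathway were taken from lists of 114 genes, of which 112 were tested (Cdkn2a and E2f2 were not). Between G77S and WT 3 were called higher and 0 lower, where 1.3% and 2.09% of all tested genes were. Timeless, a fork protection factor, was at 3.79, 0.695 and 1.39 CPM in WT, 7.03 and 4.98 in KO, and 21.3, 16.1 and 21.6 in G77S (log2 fold change 3.30, SE 0.62, adjusted p = 0.0195). Dut, which removes dUTP, was at 139 to 169 CPM in WT and 304 to 360 in G77S (log2 1.13, SE 0.22, adjusted p = 0.0216). Fbxo5 (Emi1), an inhibitor of the anaphase-promoting complex, was at 34.2 to 43.4 CPM in WT and 85.8 to 119 in G77S (log2 1.38, SE 0.31, adjusted p = 0.0412).

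Between G77S and KO 3 were called higher and 0 lower, where 1.76% and 2.43% of all tested genes were: Fen1, the flap endonuclease of Okazaki fragments (log2 1.98, adjusted p = 0.0475), Racgap1, a cytokinesis regulator (1.23, adjusted p = 0.0242), and Ccnf, cyclin F (1.5, adjusted p = 0.0474). Between KO and WT none of the 112 was called with edgeR, and 20 passed at an unadjusted p under 0.05, beside 1819 of all 13953 tested genes. By list, the medians for G77S against WT were 0.56 for 37 origin and fork genes, 0.31 for 8 nucleotide genes, -0.03 for 25 G1/S control genes and 0.27 for 42 mitosis genes. All tested genes had 0.03 there. For KO against WT the list medians were 0.14, 0.28, -0.16 and -0.37, where all tested genes had -0.06.

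Inhibitors and alternative cyclins showed no called change. Cdkn1a, the p21 inhibitor, was at 82.1, 287 and 244 CPM in WT, 104 and 34.8 in KO, and 138, 138 and 125 in G77S. Cdkn1c, the p57 inhibitor, was at 0 to 0.0558 CPM in WT, 0 to 0.591 in KO and 0 to 3.29 in G77S. Ccne2, cyclin E2, was at 8.54 to 56.5 CPM in WT, 38.1 and 55.4 in KO, and 15.1 to 20.4 in G77S, so that both KO libraries were above G77S (log2 fold change -1.40 for G77S against KO, SE 0.60, adjusted p = 0.217). Ccnd2, cyclin D2, was at no more than 1.27 CPM. Cdk4, the partner of the D cyclins, was at 137 to 202 CPM in WT, 306 and 259 in KO, and 258 to 277 in G77S (adjusted p = 0.185 and 0.0847 against WT). Gmnn, geminin, which blocks Cdt1, lay between 184 and 341 CPM in all libraries.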

How the data were processed

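RNA from mouse blastocysts of embryonic day 4.5 was measured in 8 libraries (3 WT, 2 KO, 3 G77S), with the groups taken from the labels. The authors deposited 1 gene table per library, not pooled, holding expected counts (estimated counts in which reads of several genes are shared out), TPM, FPKM, and a transcript length and effective length in bases, per the file headers. Tools and build come from the submitters' processing notes: RSEM 1.3.1, STAR 2.6.1c, DESeq2 1.42.1 and Trim Galore 0.4.5, with GRCm38 (mm10). Which annotation release was used is not given in the sources used here. TPM and FPKM were scaled within each library in the deposited tables, and FPKM was not used.

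GENCODE symbols matched 55230 of 55471 gene identifiers (99.6%). The deposited expected counts were rounded and tested in R 4.3.3 by edgeR 4.0.16 (TMM, its low-count filter, 13953 genes, 1 quasi-likelihood fit over 8 libraries, two-sided, Benjamini-Hochberg over all tested genes). A call needs an adjusted p under 0.05, and adjusted p-values come from edgeR except where DESeq2 is named; a standard error is the size of the log2 fold change divided by the square root of F. The common biological coefficient of variation was 0.655. Library depth of 10323965 to 23842619 counts gives 3 counts the value of 0.139 to 0.298 CPM, and amplified reads without molecular identifiers make this counting error only. The script was tested on simulated data.

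Every gene of the list is named. Values in every library are given for genes called in any comparison and, in each role group, for the 3 with the highest WT TPM and the 2 with the largest positive and 2 with the largest negative log2 fold change in KO and in G77S against WT; those of Mcm5 were added after its values were seen. The genes, lists and motifs were chosen with earlier results of these data known. Alternatives were RLE scaling, no filter, a filter of at least 5 CPM in at least 2 libraries, the compared groups only, a replicate block, DESeq2 1.42.0, limma 3.58.1 on log2(TPM + 1), removal of gene length trends and leaving out each library.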

Additional observations from a re-analysis of the deposited data

How the results depend on the processing

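Over all alternatives, 0 called values of single genes changed sign, and 98 of 1425 uncalled ones did. Members called higher in G77S against WT were 2, and 7 with no filter, 5 with the stricter filter, 7 with DESeq2, 11 with limma on TPM, 4 with only these groups and 0 to 5 when 1 library was left out. Over all tested genes the calls grew as well, from 182 to 598, 325, 714, 1178 and 326 in the first 5 of these. With 1 library left out, 31 to 263 of all tested genes were called higher. Members called higher in G77S against KO were 5, and 13, 8, 11, 16 and 8 in the same order, and 2 to 3 without 1 G77S library. Over all tested genes they were 246, and 619, 391, 852, 1543 and 489, and 70 to 91 without 1 G77S library. In KO against WT, no filter called 3 lower, and DESeq2 called 1 higher and 3 lower. Of all tested genes, no filter called 285 higher and 262 lower there, and DESeq2 304 and 342, beside 11 and 6 in the main fit. The stricter filter kept 37 members, and without a KO library the lone one was assumed to vary like the other groups.

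The median log2 fold change of the S-phase genes with limma on TPM was -0.29 for KO against WT, 0.96 for G77S against WT and 1.16 for G77S against KO. On that scale the median of all tested genes was -0.12, 0.23 and 0.34. Leaving out 1 library gave S-phase medians of 0.63 to 1.07 for G77S against WT and 0.83 to 1.25 for G77S against KO. For the G2 and mitosis genes it gave -1.02 to -0.15 for KO against WT, 0.08 (without G77S replicate 3) to 0.49 for G77S against WT and 0.62 to 1.64 for G77S against KO.

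Same-numbered libraries had deviations from their group means correlated at -0.02 to 0.07, and differently numbered ones at -0.07 to 0.06. Deviations within such small groups depend on each other, so these values cannot exclude pairs. The main fit did not take the numbers as pairs. With the replicate block, 4 members were called higher in G77S against WT, beside 154 of all tested genes. The S-phase medians were then 0.90 for G77S against WT and 1.09 for G77S against KO. Against KO, Mcm5 was called with the block (adjusted p = 0.035) and Cdc45 was not (0.0805). A value of 3 counts was up to 0.298 CPM, which Ccnd1 and Espl1 reached or fell below in some libraries. The causes of these changes were not tested.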
